A study of Gallus gallus with 24 samples.

Results

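The comparison described here was that of chick retinal pigment epithelium (RPE) cultured with and without serum on its basal side, in 6 arrays of the 24 in the series. RPE was isolated from White Leghorn chick embryos on embryonic day 7 (E7), when tight junctions of the tissue begin to form, and grown on laminin-coated filters. Both groups had SF3, a serum-free medium, in the apical chamber and SF2, which is SF3 supplemented with bovine pituitary extract, in the basal chamber. The E7 SF3 group (3 arrays) received nothing else. The E7 SF3 serum group (3 arrays) also had fetal bovine serum in the basal chamber, from the lot used for all arrays of the study. The comparison was set beside that of E14 cultures (embryonic day 14) in SF3 with and without serum, and that of E7 cultures in rcSF3, which is SF3 conditioned by E14 neural retina, with and without serum. Each of those has 3 arrays in each of 2 groups, and none of them shares an array with the E7 SF3 comparison. The group coded CM-SER-SER in the labels was read as rcSF3 with serum. Each array came from an independent preparation of filters pooled within a culture condition. The members were all 38439 probe sets of the chicken genome array that are not manufacturer's controls.

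The RPE is a pigmented monolayer between the photoreceptors of the retina and the blood vessels of the choroid. It takes up retinol from the blood, regenerates the visual chromophore, moves ions and water, and forms the outer blood-retinal barrier with its tight junctions. In culture the basal surface faces the medium that stands for blood plasma, so serum brings to that surface lipoproteins, retinol, hormones bound to carrier proteins, growth factors and adhesion proteins. Basal SF2 contains pituitary hormones, but the control cultures had no serum.

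The deposited values were probe set signals, scaled to a common trimmed mean on every array, and were compared on the log2 scale. A log2 change of 1 is a doubling. Probe sets with a mean signal over the 12 E7 arrays at or above the median probe set were tested, which left 19220 and set the lowest mean kept at a signal of 91.5. Median signals of the 6 arrays ranged from 95.7 to 103.8, so this level lies near the middle of an array. Pairs of arrays within a group correlated at r = 0.979 to 0.984 over the probe sets kept, and pairs from different groups at 0.933 to 0.948. The log2 ratio of the 3' to the 5' control probe sets of actin, which depends on the length of the labelled RNA, was 0.89, 0.68 and 0.68 without serum and 0.31, 0.41 and 0.40 with serum. These groups did not overlap (difference -0.38, exact two-sided permutation test p = 0.1, the smallest that 3 against 3 arrays allow), whereas those of GAPDH did (difference 0.04, exact permutation p = 0.2). The actin ratio was also lower with serum, without overlap, in the groups set beside this comparison. In rcSF3 it was 0.74, 0.55 and 0.59 without serum and 0.19, 0.22 and 0.38 with serum. In E14 SF3 it was 0.73, 0.73 and 0.79 without serum and 0.44, 0.32 and 0.43 with serum. RNA length and serum cannot be told apart in any of these comparisons.

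Serum in the basal chamber was accompanied by differences across a large share of the transcriptome. Of the 19220 probe sets tested, 7358 (38.3%) passed an adjusted p of 0.05 in the moderated test of limma, 3299 (17.2%) of them higher and 4059 (21.1%) lower with serum. When all 38439 probe sets were fitted, 6885 (17.9%) passed, 3054 (7.95%) higher and 3831 (9.97%) lower. Most of the differences were small. The middle 80% of log2 changes lay between -0.70 and 0.61, and the median standard error of a change was 0.15. A change of at least 2-fold that passed the test was found for 598 probe sets higher (3.11%) and 854 lower (4.44%), and one of at least 4-fold for 83 higher (0.432%) and 37 lower (0.193%). The 3 arrays of one group lay entirely beyond the 3 of the other for 9690 probe sets (50.4%). Among 9108 genes that could be named from a single symbol, 3544 (38.9%) passed, 1902 higher (20.9%) and 1642 lower (18%).

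The direction of small changes depended on brightness. Among the 133 probe sets with a mean signal of at least 20000, 106 passed as lower and 1 as higher, and their median log2 change was -0.28. After quantile normalization, which forces all arrays to one distribution of signals, that median was -0.01, with 17 lower and 16 higher. As deposited, the same 133 probe sets had median serum changes of -0.20 in E14 SF3 cultures and -0.30 in rcSF3. The source of these decreases was not tested. The median over all probe sets kept was -0.04 as deposited and -0.00 after quantile normalization. Small decreases of very bright genes are therefore given below with their quantile-normalized values.

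The largest increase was that of CKMT1B, a mitochondrial creatine kinase, which transfers phosphate from ATP to creatine. Its signals were 171, 119.9 and 145 without serum and 3113, 4328 and 4736 with serum, a 27.8-fold difference (log2 change 4.79, SE 0.19, adjusted p = 9.42e-10). The groups were far apart, with no array near the other group. Other genes of the creatine system that were measured also changed. SLC6A8, the creatine transporter, rose by 0.99 on the log2 scale and GAMT, which makes creatine, by 1.17 (adjusted p = 4.84e-06 and 0.000852). The cytosolic brain-type kinase CKB was lower, at -0.44 (adjusted p = 3.03e-05), and at -0.17 after quantile normalization. Its mean signal was above 20000, where probe sets as a group had a median change of -0.28.

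Among the increases were 1 lipoprotein receptor, SCARB1, a receptor for retinol uptake and enzymes of retinoid metabolism. Genes of sterol sensing and uptake went both ways: 36.4% rose and 27.3% fell, beside 20.9% and 18% of all named genes. In that list VLDLR rose by 0.52 and LRP8 fell by 0.70 (adjusted p = 0.00594 and 0.00837). Of genes of sterol efflux 20% rose and 40% fell. SCARB1 encodes the scavenger receptor that takes up cholesteryl esters and carotenoids from lipoproteins. Its signals were 3032, 2451 and 2998 without serum and 18663, 23858 and 22653 with serum, so that it was among the brightest probe sets of the serum cultures, with a 7.68-fold difference (log2 change 2.94, SE 0.09, adjusted p = 5.18e-11). STRA6, the membrane receptor for plasma retinol-binding protein, had signals of 3323, 2749.8 and 3033 without serum and 14281, 16439.6 and 15288 with serum. Its 5.06-fold increase had a standard error of 0.09 on the log2 scale (adjusted p = 3.22e-10). RDH11, a retinol dehydrogenase, went from 1367 ± 90.7 without serum to 8449.9 ± 1454 with serum (SD, n = 3), a 6.13-fold difference with an adjusted p of 7.82e-09. DHRS3, which reduces retinaldehyde to retinol, rose by 1.95 on the log2 scale, from signals of 1882, 1479 and 1896 without serum and 6773, 6382 and 6991 with serum. A second DHRS3 probe set also rose.

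Retinoic acid is made from retinaldehyde by aldehyde dehydrogenases and acts through nuclear receptors of the RAR and RXR families. Of 11 genes of this pathway that were tested, 6 rose (54.5%) and 2 fell (18.2%), beside 20.9% and 18% of all named genes. The list's median log2 change was 0.75 beside 0.02 for all named genes. The receptors RARB, RARA and RXRG rose by 1.21, 1.07 and 0.75 on the log2 scale, and ALDH1A3, one of the enzymes that make retinoic acid, by 1.37. RARB, itself a well-known target of retinoic acid, had signals of 232, 366 and 310.5 without serum and 680.1, 706 and 683 with serum, without overlap (adjusted p = 3.35e-05). The 2 members that fell were ALDH1A2, another retinoic acid-forming enzyme, at -1.14 (adjusted p = 0.000891), and RBP4, the plasma carrier of retinol, at -1.82 (adjusted p = 0.0179). The RBP4 signals were 685, 1572 and 351 without serum and 212, 84.8 and 477 with serum, and the groups overlapped. RBP4 did not pass without E7 SF3 array 2 (adjusted p = 0.0958) or E7 SF3 serum array 2 (adjusted p = 0.098). RARA had signals of 127, 114 and 87.2 without serum and 206, 208 and 274 with serum, and it and RXRG did not pass without E7 SF3 array 3 (adjusted p = 0.0514 and 0.0534) or E7 SF3 serum array 3 (adjusted p = 0.054 and 0.0707).

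CYP24A1, the enzyme that degrades active vitamin D and a classical target of the vitamin D receptor, was among the 3 largest increases. Its signals were 179.7, 103 and 82.1 without serum and 3007, 1140.0 and 1431 with serum, a 14.8-fold difference (log2 change 3.89, SE 0.41, adjusted p = 8.59e-06). CYP24A1 passed the filter on low signal only through the E7 groups with serum. Targets and modifiers of steroid and thyroid hormones were also higher. Of 13 such genes tested, 9 rose (69.2%) and 1 fell (7.69%), beside 20.9% and 18% of all named genes. The list's median log2 change was 0.58. KLF9, a transcription factor raised by both glucocorticoids and thyroid hormone, had signals of 119.5, 102 and 89.3 without serum and 518, 739 and 678 with serum (log2 change 2.63, SE 0.19, adjusted p = 3.71e-07). The related factor KLF13 rose by 1.56, and FKBP5, a co-chaperone of the glucocorticoid receptor, by 0.58. Like CYP24A1, KLF13 passed the filter on low signal only through the E7 groups with serum. DIO3, the deiodinase that inactivates thyroid hormone, had signals of 1158, 2329 and 1248 without serum and 6343, 3984 and 6119 with serum (log2 change 1.84, adjusted p = 0.00013). Values for DIO2, which activates the hormone, were 1694 ± 334 without serum against 1197 ± 157 with serum (SD, n = 3), and its log2 change of -0.49 did not pass (adjusted p = 0.052).

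TAT, the tyrosine aminotransferase of amino acid breakdown and a glucocorticoid target in liver, had signals of 32.8, 53.7 and 34.1 without serum and 274, 503 and 143 with serum. None of the 3 arrays without serum reached the filter level, and the change was 2.79 on the log2 scale, or 1.56 if low signals were set to that level. MT4, a metallothionein, rose from 6535 ± 511 without serum to 18732 ± 2744 with serum (SD, n = 3), although near-identical family members could share its probes. SGK1, a kinase that glucocorticoids and serum raise in many mammalian cells, was the member that fell. Its signals were 17654, 16406 and 14008 without serum and 6688, 5287 and 6312 with serum (log2 change -1.39, adjusted p = 1.09e-05), without overlap, and a second SGK1 probe set also fell.

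**Figure D1:**
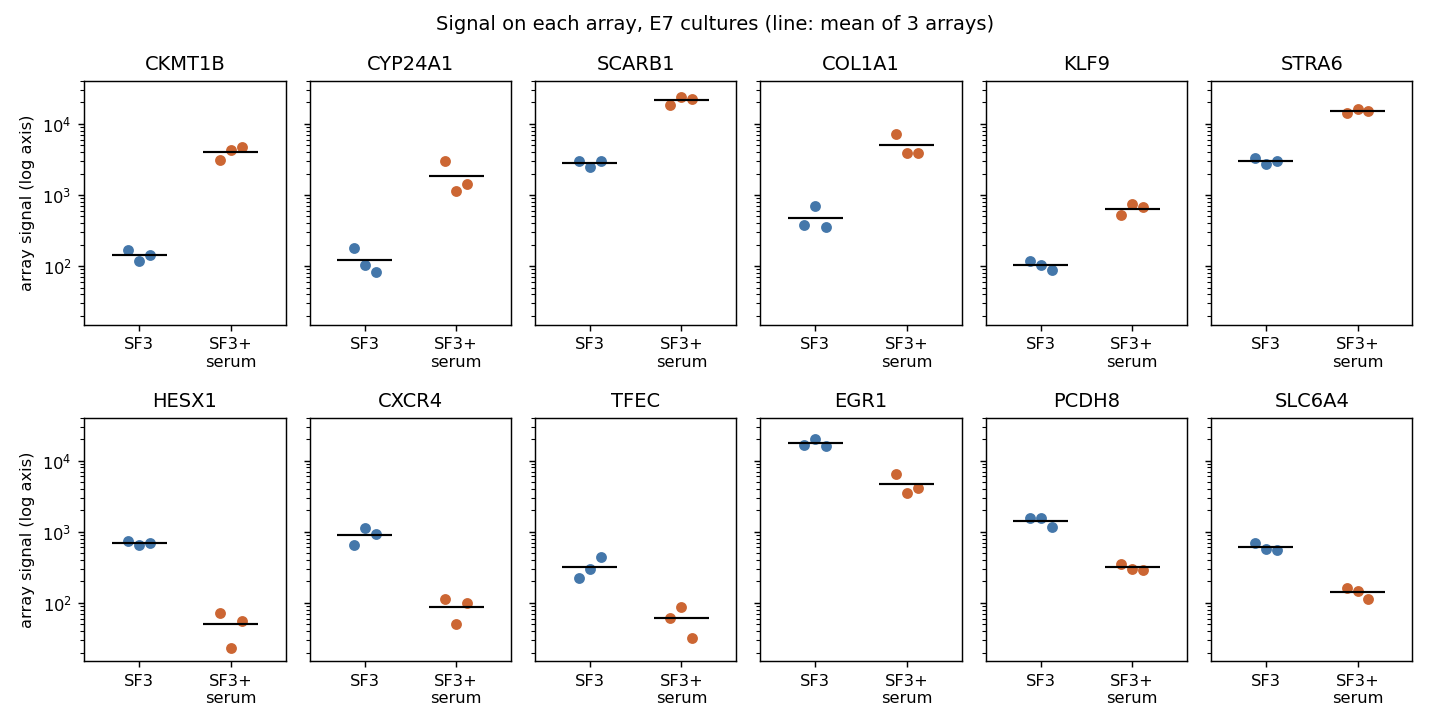
Signal on each array (log axis) of 6 genes that were higher and 6 that were lower with serum, with 3 arrays in each of the E7 SF3 and E7 SF3 serum groups and a line at the mean. The groups did not overlap for any of these 12 genes, which were chosen partly for that.

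Serum response factor (SRF) and its partners of the MRTF family drive genes of contractile actin. Of 17 such genes tested, 12 rose (70.6%) and 1 fell (5.88%), beside 20.9% and 18% of all named genes. The list's median log2 change was 0.49. ACTG2, the smooth muscle gamma-actin, had signals of 63.7, 166 and 17 without serum and 347, 394 and 376 with serum, and TAGLN, a protein that binds actin in smooth muscle, of 387, 858 and 379 without serum and 2364, 1954 and 1909.5 with serum. TAGLN thus rose 4.12-fold (adjusted p = 6.04e-05). The ACTG2 change was 2.72 on the log2 scale (adjusted p = 0.0219), or 1.74 with signals raised to the filter level, and actin paralogs could share its probes. ACTG2 passed the filter on low signal only through the E7 groups with serum, so the filter favoured its place among the 12 that rose. Without E7 SF3 array 3 or E7 SF3 serum array 2 or 3 its adjusted p was 0.112, 0.057 and 0.0551. CNN2 (calponin), FHL2 (a LIM-domain protein), TES (testin), ZYX (zyxin) and SRF itself rose by 1.58, 1.26, 1.09, 0.82 and 0.49, the last with an adjusted p of 0.0537 without E7 SF3 array 2. The cytoskeletal actins were very bright and differed little. ACTB changed by 0.32, and ACTG1 by -0.23, which turned to 0.07 after quantile normalization and passed only without E7 SF3 serum array 2 when 1 of the 6 arrays was left out.

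Among matrix genes, COL1A1, which encodes a chain of fibrillar collagen I, had signals of 373, 698 and 357 without serum and 7160.2, 3919 and 3839 with serum (log2 change 3.39, SE 0.31, adjusted p = 2.97e-06), a 10.5-fold difference. Signals of DCN, the collagen-binding proteoglycan decorin, were 41.3, 65 and 92.1 without serum and 494, 351 and 428 with serum. Its change was 2.74 on the log2 scale, or 2.20 with signals raised to the filter level. DCN passed the filter on low signal only through the E7 groups with serum. Of 28 genes chosen as mesenchymal or fibroblast genes, 9 rose (32.1%), 4 fell (14.3%) and 15 did not pass. The shares over all named genes were 20.9% higher and 18% lower. CDH11, COL12A1, THY1 and POSTN rose by 2.06, 1.47, 1.40 and 1.06. POSTN did not pass without E7 SF3 array 1 or 3 or E7 SF3 serum array 1 (adjusted p = 0.105, 0.0528 and 0.0996). Other members of the same list went the other way. FBN1, the microfibril protein fibrillin-1, had signals of 456, 518 and 441 without serum and 164, 135 and 90.2 with serum (log2 change -1.90, adjusted p = 4.73e-05), and COL5A2, a chain of collagen V, fell by 0.84. Values for COL1A2, the partner chain of COL1A1, were 2321 ± 1174 without serum against 3774 ± 1174 with serum (SD, n = 3, adjusted p = 0.0846), with probe sets of either sign. FN1 (fibronectin) and PDGFRB, a receptor of mesenchymal cells, had log2 changes of 0.08 and -0.04 (adjusted p = 0.725 and 0.899). The summed signal of the 28 genes ranged from 105094 to 117489 without serum and from 111480.4 to 133542 with serum, so the groups overlapped.

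Basement membrane genes and receptors for matrix followed a mixed course. Of 20 basement membrane genes, 9 rose (45%) and 3 fell (15%), beside 20.9% and 18% of all named genes. NID1 (nidogen), COL18A1, PXDN (peroxidasin, which cross-links collagen IV) and HSPG2 (perlecan) rose by 1.62, 1.17, 1.02 and 0.77, although 3 further NID1 probe sets did not pass. LAMA3, an epithelial laminin chain, fell from 422 ± 25.1 without serum to 175 ± 58.9 with serum (SD, n = 3, adjusted p = 0.000448). Of 20 integrins and other matrix receptors, 9 rose (45%) and 4 fell (20%). The integrin chains ITGA8 and ITGA4 rose by 1.42 and 1.41, ITGA4 with an adjusted p of 0.0742 without E7 SF3 array 1 and 0.0757 without E7 SF3 serum array 1, while ITGA6, a chain of laminin receptors, fell by 0.57 and the hyaluronan receptor CD44 by 1.10.

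Genes of the amino acid response, a set raised by ATF4 when amino acids are scarce, were largely higher. Of 15 tested, 10 rose (66.7%) and 1 fell (6.67%), beside 20.9% and 18% of all named genes. The list's median log2 change was 0.55. CHAC1, which breaks down glutathione, had signals of 536, 1663 and 529 without serum and 3934, 5634 and 4767 with serum (log2 change 2.60, adjusted p = 0.00236). The spread of CHAC1 was large, but the groups did not overlap. PHGDH, the first enzyme of serine synthesis, had signals of 31.9, 154 and 102 without serum and 339.5, 468 and 335 with serum. The next enzyme, PSAT1, rose by 1.07, whereas PSPH, the last of the 3 steps, fell by 0.64 (adjusted p = 0.00289 and 0.00142). ASNS, asparagine synthetase, and GPT2, a mitochondrial alanine aminotransferase, rose by 1.25 and 0.98. ATF4 itself had a log2 change of 0.17 (adjusted p = 0.111).

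Other large increases were of single genes. ABI3, an adaptor of the ABI family that acts on actin assembly, had signals of 344, 140.3 and 180.0 without serum and 2693, 3802 and 3116 with serum (log2 change 3.95, SE 0.24, adjusted p = 8.09e-08). PHOSPHO1, a phosphatase of phosphocholine, rose by 2.89 with a second probe set at a like change, and RGCCL by 2.99. For CA14, a membrane carbonic anhydrase, the signals were 249, 309 and 258 without serum and 1558, 2686 and 1855 with serum, a 7.32-fold difference (adjusted p = 8.09e-08). The anion exchanger SLC4A2, the potassium channel KCNQ1 and CA14 all serve transport of ions or bicarbonate, and SLC4A2 and KCNQ1 rose by 1.69 and 2.06. A second SLC4A2 probe set did not pass. PDE1A and PDE6H, subunits of phosphodiesterases, rose by 2.80 and 2.85 from means under the filter level, or by 1.28 and 1.87 with signals raised to it. PDE1A and PDE6H passed the filter on low signal only through the E7 groups with serum. Of 14 genes of the insulin and IGF axis, 7 rose (50%) and 1 fell (7.14%), beside 20.9% and 18% of all named genes. The binding proteins IGFBP5 and IGFBP4 and the transcription factor FOXO1 rose by 1.93, 1.19 and 1.19, and the insulin receptor substrate IRS2 fell by 0.60.

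The largest decrease was that of HESX1, and 3 transcription factors, HESX1, TFEC and EGR1, were among the 15 largest. HESX1, a homeobox repressor of the early forebrain and pituitary, had signals of 741, 645 and 691 without serum and 72, 23.3 and 55.7 with serum (log2 change -3.93, SE 0.39, adjusted p = 4.87e-06). None of the 3 arrays with serum reached the filter level, and the change was -2.92 if low signals were set to it. HESX1 passed the filter on low signal through the E7 SF3 group alone. TFEC, a factor of the MITF family, had signals of 223, 294 and 436 without serum and 60.5, 88.7 and 31.6 with serum (log2 change -2.47, adjusted p = 0.00022, or -1.74 with signals raised). A second TFEC probe set also fell. The TFEC probe set described passed the filter on low signal only through the E7 groups without serum. LHX2, a homeobox gene of the eye field, fell from 1551 ± 72.9 without serum to 710.1 ± 32.6 with serum (SD, n = 3). Of 15 transcription factors of the eye field and RPE, TFEC and LHX2 were the only 2 that fell (13.3%), and 6 rose (40%). Among all named genes 18% fell and 20.9% rose. SOX10, known for its part in neural crest and pigment cells, had signals of 1438, 1359 and 929.8 without serum and 5673, 7310.2 and 5751 with serum (log2 change 2.35, SE 0.19, adjusted p = 7.93e-07), and its second probe set rose by a like amount. The log2 change of MITF, the master regulator of pigment genes, was 0.43 (adjusted p = 0.0122), but another MITF probe set fell and the adjusted p was 0.0618 without E7 SF3 array 2. OTX2, which MITF works with in the RPE, changed by -0.04 (adjusted p = 0.635) as deposited. After quantile normalization OTX2 rose by 0.24 and passed (adjusted p = 0.00148), so its call depended on scaling. A second OTX2 probe set rose. SIX3, another eye-field gene, rose by 0.76.

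EGR1, an immediate early gene that serum raises within minutes in starved cells of many kinds, was lower in these cultures. Its signals were 16746, 19806 and 15832 without serum and 6488, 3443 and 4063 with serum, a 3.87-fold decrease (adjusted p = 1.8e-06), and a second EGR1 probe set also fell. Of 9 immediate early genes tested, EGR1 was the one that fell (11.1%), and 2 rose (22.2%), beside 18% and 20.9% of all named genes. The cultures were harvested days after plating, with medium changed every other day, so a response within minutes was not measured.

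Other large decreases were of genes with varied roles. CXCR4, the receptor of the chemokine CXCL12, had signals of 647, 1109 and 938 without serum and 113, 50.6 and 99.9 with serum (log2 change -3.40, SE 0.41, adjusted p = 2.13e-05). It passed the filter on low signal through the E7 SF3 group alone. SLC6A4, the serotonin transporter, had signals of 699, 575 and 557 without serum and 164, 148 and 113 with serum, and GABRG1, a subunit of GABA-A receptors, of 1939, 2629 and 3062 without serum and 743, 536 and 463 with serum. These groups lay well apart, with log2 changes of -2.11 and -2.13 (adjusted p = 2.35e-06 and 9.27e-06). PCDH8, a protocadherin, and PLXNA4, a semaphorin receptor, changed by -2.17 and -2.16. The potassium channel KCNK16 fell 4.01-fold, and KCNK2, another potassium channel, and the water channel AQP4 changed by -1.16 and -1.57 on the log2 scale. LECT1 (chondromodulin, a secreted inhibitor of vessel growth) went from 3436 ± 67.8 without serum to 818 ± 158 with serum (SD, n = 3). RPS6KC1, a protein of the S6 kinase family, changed by -2.22 with 2 further probe sets falling, and STK32C, GGT5 and MOXD1, which are a kinase, a gamma-glutamyltransferase and a monooxygenase, by -2.17, -2.03 and -1.95. No GGT5 signal with serum reached the filter level, and its change was -1.24 if low signals were set to it. GGT5, STK32C and MOXD1 passed the filter on low signal only through the E7 groups without serum.

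The cells carried the RPE's defining transcripts in both media. All 15 RPE markers that the array annotation names were above the filter level, and the summed signal of the 15 was 195624 to 214266 without serum and 199349 to 213966 with serum. Of these, 5 rose (33.3%) and 6 fell (40%), beside 20.9% and 18% of all named genes. The split depended on scaling: after quantile normalization 6 rose and 2 fell. DCT and TYRP1, enzymes of melanin synthesis, and RLBP1, the retinaldehyde-binding protein, had log2 changes of -0.30, -0.33 and -0.28 as deposited and of -0.02, -0.05 and -0.01 after quantile normalization. The last 3 no longer passed (adjusted p = 0.687, 0.461 and 0.868), and the mean signal of each gene was above 20000. TYR, the tyrosinase that starts melanin synthesis, and the melanosome transporter SLC45A2 fell under both scalings, by 0.49 and 0.86 on the log2 scale as deposited.

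TTR, the transport protein of thyroxine and retinol-binding protein, stood out among the RPE markers that rose. Its signals were 5546, 3431 and 4476 without serum and 11590.5, 15690.4 and 12877 with serum (log2 change 1.59, SE 0.15, adjusted p = 3.48e-06). RPE65 rose by 0.44 (adjusted p = 0.00812), but its groups overlapped. The RPE65 change was -0.28 at E14 (adjusted p = 0.0636) and -0.31 in rcSF3 (adjusted p = 0.0565). LRAT, which esterifies retinol, had values of 154 ± 32.4 without serum against 219 ± 27.3 with serum (SD, n = 3, adjusted p = 0.087). The chloride channel BEST1 had a log2 change of -0.08 (adjusted p = 0.639), and its groups overlapped. Of 10 visual cycle genes, 4 rose (40%) and 3 fell (30%) as deposited, while after quantile normalization 5 rose and none fell. Of 21 melanosome genes, 5 rose (23.8%) and 9 fell (42.9%), or 5 and 7 after quantile normalization. Among all named genes 20.9% rose and 18% fell as deposited. RAB27A, which ties melanosomes to their motor, and KITLG, the ligand of the KIT receptor of melanocytes, fell by 0.81 and 1.55 (adjusted p = 4.26e-06 and 8.39e-05).

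**Figure D2:**
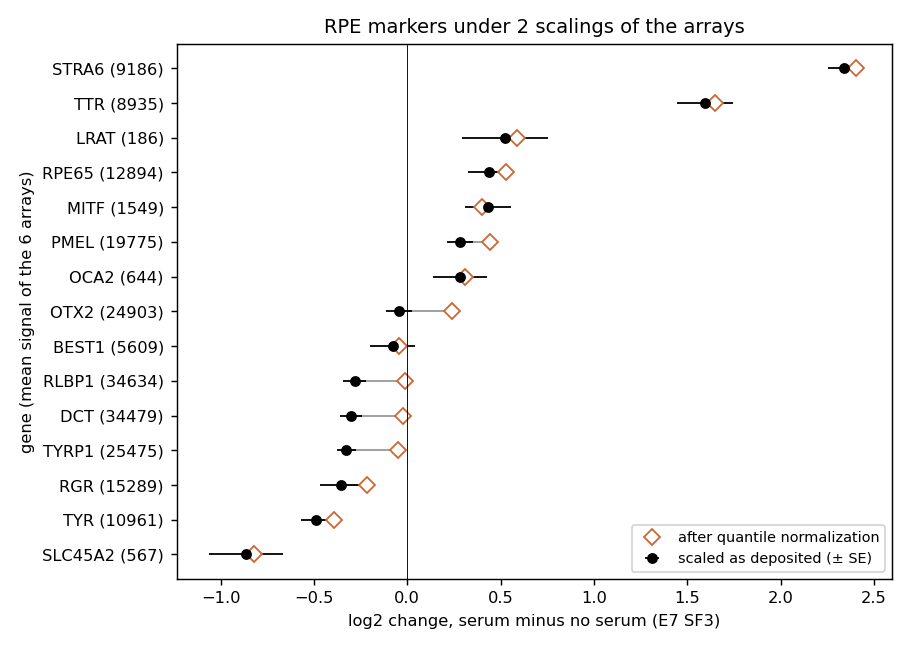
Log2 change with serum of 15 RPE markers as deposited (black, with the SE of the fit) and after quantile normalization (open diamonds), with each gene's mean signal in brackets. The changes of STRA6 and TTR were alike under both scalings, while those of the bright genes RLBP1, DCT and TYRP1 moved to near 0.

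Of 28 tight junction genes tested, 6 rose (21.4%, beside 20.9% of all named genes) and 8 fell (28.6%, beside 18%), and the counts were the same after quantile normalization. CLDN1, a barrier-forming claudin, had signals of 198, 273 and 258 without serum and 842, 1260.3 and 978 with serum (log2 change 2.07, SE 0.29, adjusted p = 7.41e-05). OCLN (occludin) and CLDN5, a claudin also typical of endothelium, rose by 0.84 and 0.66, although a second CLDN5 probe set did not pass and OCLN did not pass without array 2 of either group (adjusted p = 0.0623 and 0.0605). The tricellular junction protein MARVELD2 and the polarity genes PRKCI and PARD3 fell by 0.95, 0.85 and 0.51. The log2 change of TJP1 (ZO-1), the scaffold that marks these junctions, was -0.17 (adjusted p = 0.283).

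**Figure D3:**
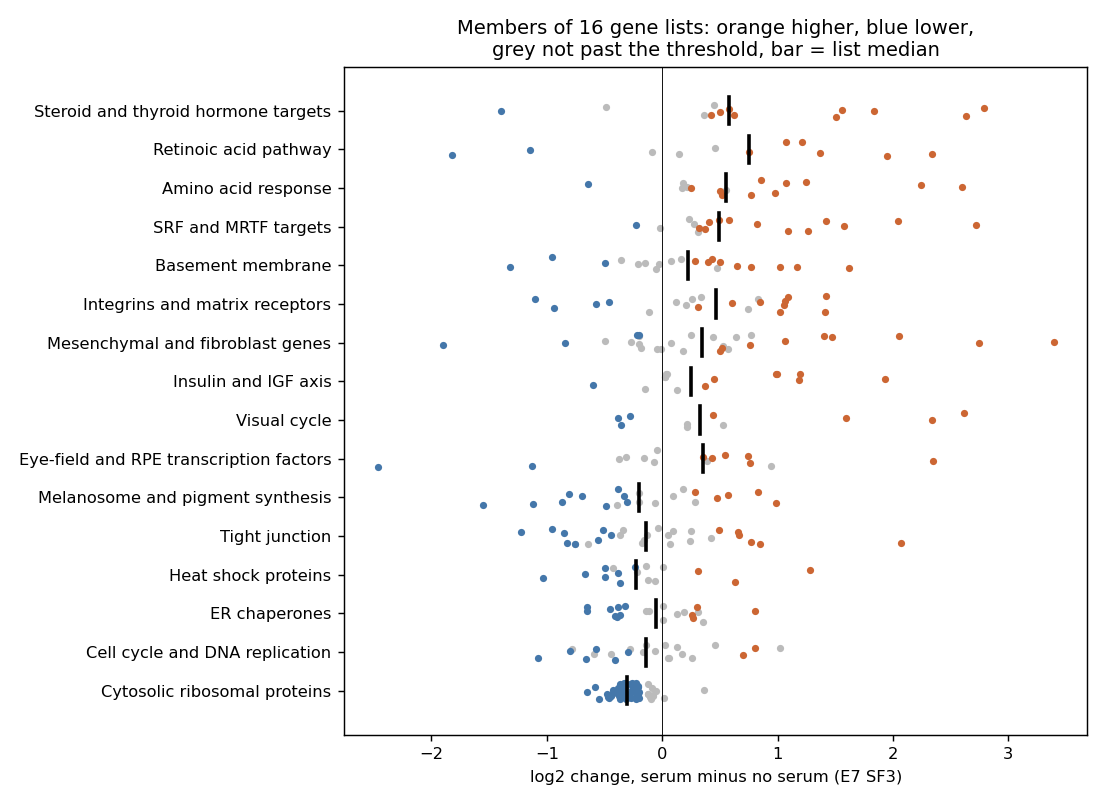
Log2 change with serum (horizontal axis) of every tested member of 16 gene lists, coloured by direction where the adjusted p was under 0.05, with a bar at the list's median. Hormone targets, the retinoic acid pathway, the amino acid response and SRF targets lay mostly above 0, and the ribosomal proteins lay close together just below it.

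Genes for general cell functions moved by smaller amounts. The 57 cytosolic ribosomal protein genes had a median log2 change of -0.30, with 46 lower and 0 higher as deposited. After quantile normalization the median was -0.04, with 16 lower and 3 higher, and the median of all probe sets with a signal of at least 20000 was -0.28 as deposited. As deposited, 3 of 16 heat shock proteins rose (18.8%) and 7 fell (43.8%), beside 20.9% and 18% of all named genes. Of 20 chaperones of the endoplasmic reticulum, 4 rose (20%) and 8 fell (40%), also as deposited. Decreases among bright probe sets were fewer after quantile normalization, so both of these counts of decreases may depend partly on scaling. Of 23 cell cycle genes, 2 rose (8.7%) and 6 fell (26.1%). Only 1 of them fell without E7 SF3 array 2, and 3 without E7 SF3 array 3 or E7 SF3 serum array 2. In the FGF and MAPK feedback list 1 of 12 rose and none fell, and in the gap junction list 0 of 4 passed, both shares below the 38.9% of all named genes.

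Markers of other cell types were measured to describe what the cultures held. In most of these lists single members changed in both directions. Their counts stand beside 20.9% of all named genes higher and 18% lower. The filter left 7 of 14 photoreceptor markers, 9 of 19 neuronal, 5 of 9 melanocyte and neural crest, 7 of 21 endothelial and blood, 7 of 15 neural retina progenitor and glial, 9 of 12 ciliary and other epithelial, and 4 of 15 muscle markers. The summed signal of the melanocyte and neural crest markers was 2236 to 2707 without serum and 7546 to 9242 with serum, a difference made largely by SOX10, and 3 of the 5 rose. EDNRB, an endothelin receptor of neural crest cells, rose by 0.99, and MLANA, a melanosome protein, by 0.48. When 1 of the 6 arrays was left out, MLANA passed only without E7 SF3 serum array 3, and its adjusted p without each of the others was 0.0514 to 0.125.

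The sum of the photoreceptor markers was 5463 to 5758 without serum and 3319.9 to 4388 with serum, yet 2 of the 7 rose, PDE6H and ARR3, and 1 fell, the cone channel subunit CNGA3 at -1.35. PDE6H was one of the 7 only through its signals in the E7 groups with serum, so the filter favoured its place among those that rose. Most of this sum came from GNB3 and GNAT2, whose changes of -1.38 and -0.45 did not pass (adjusted p = 0.0787 and 0.129), although their groups did not overlap. The neuronal sum was 6249 to 6334 without serum and 6626 to 9136 with serum. DCX, NRXN3 and SYP rose by 1.93, 1.64 and 1.46, SCG3 fell by 0.47, and the other 5 did not pass, 4 of them with negative changes. Sums were also lower with serum, without overlap, for 3 further lists. For endothelium and blood the sums were 7774 to 8978 and 5856 to 6208, and the decrease was that of CD74, a gene of antigen-presenting cells, with signals of 5575, 7048 and 6944 without serum and 3444, 2682 and 3125 with serum. The other members that passed in that list rose, namely the macrophage receptor CSF1R by 0.87 (adjusted p = 0.00035), CLDN5 by 0.66 and PECAM1 by 0.59. For neural retina progenitors and glia the sums were 66621 to 73724 and 56843 to 58841, and 3 members fell and 1 rose. FABP7, a lipid-binding protein of radial glia, fell from 14067 ± 1064 without serum to 6037 ± 844 with serum (SD, n = 3), CRYBB1 fell by 1.08, and RLBP1, which is also an RPE gene, by 0.28, while GLUL, the glutamine synthetase of glia, rose by 0.42. RLBP1 was the largest part of these sums, with means of 37980 without serum and 31287 with serum as deposited. Its decrease did not pass after quantile normalization, so the lower sum depends partly on scaling. For ciliary and other epithelium the sums were 18974 to 21348 and 13846 to 15524. OPTC (opticin) and MSX1 fell by 0.84 and 0.66 in that list, and COL9A3 and KRT14 rose by 0.47 and 0.53. The muscle sums overlapped. Changes in the number of cells of a type and in RNA per cell cannot be told apart in these pooled cultures, and the part of these markers in the results above was not tested.

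The same contrast in E14 cultures gave 5207 probe sets (27.1%), 2520 (13.1%) higher and 2687 (14%) lower, and 2670 (29.3%) of the named genes. The probe sets tested were those chosen on the 12 E7 arrays, and the E14 model held all 24 arrays. The shares called at the 2 ages are therefore not on equal terms. Of the E7 calls, 3336 passed in the same direction at E14, which is 45.3% of the E7 calls and 64.1% of the E14 calls, and 55 passed in opposite directions. The difference between the serum effects of the 2 ages passed for 735 probe sets (3.82%), 410 (2.13%) more positive and 325 (1.69%) more negative at E7 (546 and 256 after median centring). This count fell to 377, 442, 423 and 458 when E7 SF3 array 2 or 3 or E7 SF3 serum array 2 or 3 was left out, and to 409 without E14 SF3 serum array 2. Among named genes 393 (4.31%) passed, 241 (2.65%) more positive and 152 (1.67%) more negative.

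HESX1 and CXCR4 passed the filter on low signal through the E7 SF3 group alone, and their differences between ages passed the test. Both lay near or under the filter level at E14, so a decrease there could not be measured, and the test cannot compare serum effects. In E14 cultures the HESX1 signals were 58.9, 39.6 and 108 without serum and 68.9, 104 and 86.2 with serum, so that the gene was near or under the filter level in both E14 groups. The difference of the changes was -4.36 (adjusted p = 0.000335), or -2.90 with signals raised to the filter level. The CXCR4 signals at E14 were 23.9, 42.1 and 32.5 without serum and 10.5, 39.5 and 53.2 with serum (difference -3.21, adjusted p = 0.0233), all under the filter level, and the difference was -3.12 with signals raised to it. Some of the genes with large increases at E7 differed between ages. The SCARB1 signals at E14 were 12516, 9424 and 13214 without serum and 25551, 26259.6 and 28150.4 with serum, and its change was larger at E7 by 1.74 on the log2 scale (adjusted p = 5.27e-07). STRA6 rose by 2.34 and 1.05 (difference adjusted p = 4.58e-05). For TTR the changes were 1.59 and -0.06, with a difference of 1.66 (adjusted p = 2.35e-05). For CYP24A1 the E14 signals were 251, 238 and 63.8 without serum and 263, 230.4 and 270.1 with serum, and the E14 change of 0.70 did not pass (adjusted p = 0.394). The difference between ages for CYP24A1 had an adjusted p of 0.0295. This difference and that of CXCR4 each failed the test when any of 6 arrays was left out, with adjusted p of 0.066 to 0.0747 for CYP24A1 and 0.0514 to 0.0705 for CXCR4. CA14 was higher by 2.87 at E7 and by 0.83 at E14 (difference adjusted p = 0.000375).

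Cholesterol synthesis showed the reverse order. Of 14 enzymes of the pathway, 4 rose with serum in E7 cultures and 13 in E14 cultures, and none fell at either age. The difference between ages passed for 10, all of them more negative at E7. Among all named genes 20.9% rose at E7 and 15.9% at E14, and 1.67% had a more negative difference. The median log2 change was 0.23 at E7 and 1.18 at E14. SQLE, squalene epoxidase, had signals of 1509.5, 1853 and 2062 without serum and 1898, 1754 and 1711 with serum at E7, with overlapping groups, and of 1633, 1833 and 1602 without serum and 4122, 5103 and 4394 with serum at E14 (difference -1.43, adjusted p = 0.00091). HMGCS1, which makes the HMG-CoA of the pathway, changed by 0.31 at E7 (adjusted p = 0.228) and by 1.58 at E14 (adjusted p = 8.7e-06), and the difference did not pass without E7 SF3 array 2, E7 SF3 serum array 3 or E14 SF3 serum array 2 (adjusted p = 0.057, 0.057 and 0.0521). The E7 members that rose were SC5D, MVD, PMVK and LSS, by 0.93, 0.73, 0.73 and 0.64, of which MVD did not pass without E7 SF3 array 1 or E7 SF3 serum array 2 or 3 (adjusted p = 0.115, 0.0534 and 0.0744).

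With retinal conditioned medium in the apical chamber, serum gave 5915 called probe sets (30.8%) in E7 cultures. Of the calls in SF3, 3955 passed in the same direction there, which is 53.8% of the SF3 calls and 66.9% of those in rcSF3, and 62 passed in opposite directions. The serum effect differed between the 2 apical media for 412 probe sets (2.14%), 242 (1.26%) more positive and 170 (0.884%) more negative in SF3 (312 and 139 after median centring). This smaller count was the least stable. It was 249 when all probe sets were fitted, 177 without a mean-variance trend and 132 in the unmoderated analysis of variance. Among named genes 197 (2.16%) passed, 114 (1.25%) more positive and 83 (0.911%) more negative. The count over all probe sets ranged from 197 to 258 without rcSF3 serum array 1 or 2, rcSF3 array 3, E7 SF3 array 2 or 3, or E7 SF3 serum array 2 or 3.

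TAT had the most positive difference. Its signals in rcSF3 were 1468, 1158 and 2415 without serum and 790.3, 676 and 1006 with serum, so that it was already higher there without serum than in SF3 with serum. The serum effect was 2.79 in SF3 and -0.98 in rcSF3 (difference 3.76, adjusted p = 0.0016, or 2.54 with signals raised to the filter level). EPHA3, a receptor of ephrin-A ligands, had signals of 224, 195 and 192 without serum and 616, 478 and 343 with serum in SF3 and of 1249.9, 1138 and 1304 without serum and 395, 432 and 414 with serum in rcSF3. It rose in one medium and fell in the other, with a difference of 2.77 (adjusted p = 8.6e-05). DIO3 rose in both media, by 1.84 in SF3 and 4.06 in rcSF3 (difference adjusted p = 0.00864), and its signals in rcSF3 were 447, 827 and 450.2 without serum and 11087, 9398 and 7384 with serum.

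FAT4, a giant cadherin, rose by 2.36 in SF3, while its change in rcSF3 was 0.01 (adjusted p = 0.987). SKIL, a repressor of TGF-beta signalling, changed by 1.94 and -0.13 in the same order (difference adjusted p = 0.00018). HESX1 fell by 3.93 in SF3, and its rcSF3 signals were 74.6, 61.6 and 89.3 without serum and 82.7, 63.9 and 35.1 with serum, low in both groups. With serum in rcSF3, 17.8% of all named genes were higher and 15.1% lower. The amino acid response list, with 10 of 15 higher in SF3, had 1 higher and 2 lower in rcSF3, but the difference itself passed for 2 of its members. One of these was PSAT1, at 1.47 (adjusted p = 0.0375), which failed the test when any of 9 arrays was left out (adjusted p = 0.0539 to 0.098).

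**Figure D4:**
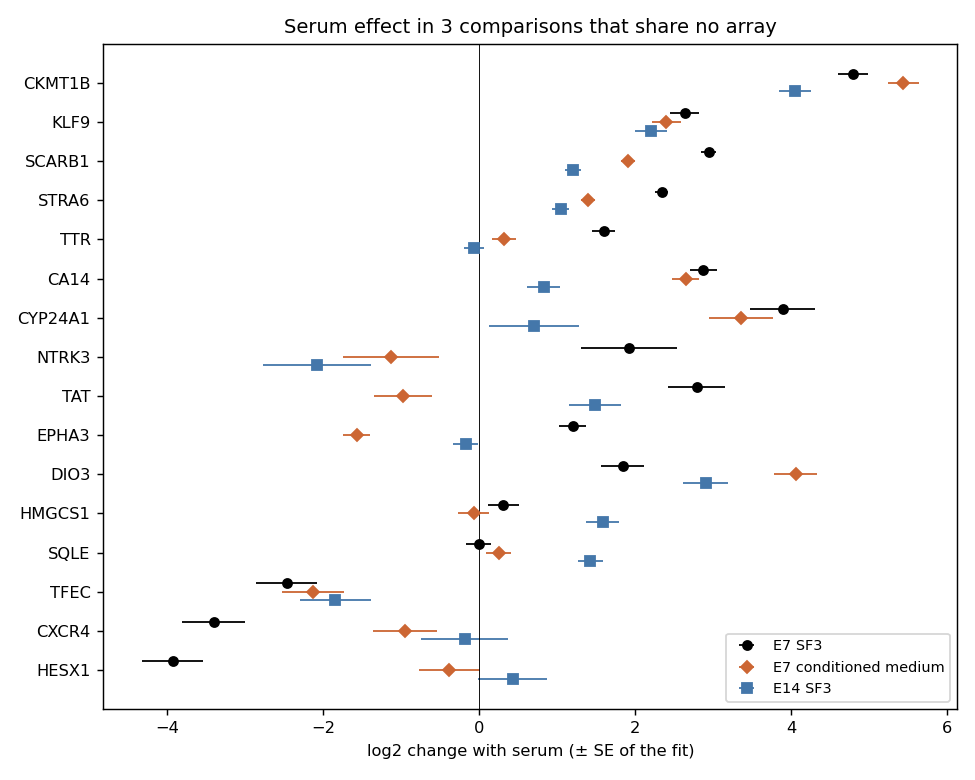
Log2 change with serum of 16 genes in E7 SF3 cultures (black), E7 cultures in retinal conditioned medium (orange) and E14 SF3 cultures (blue), with the SE of the fit and 3 arrays in each group. CKMT1B and KLF9 were higher with serum in all 3 comparisons, whereas the changes of HESX1 (-3.93) and CXCR4 (-3.40) in E7 SF3 cultures were more negative than in the others. In those other comparisons HESX1 and CXCR4 lay near or under the filter level, so a decrease could not be measured.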

How the data were processed

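RNA of cultured chick RPE was measured on 1-color chicken genome arrays. The authors computed an intensity for each probe set with GeneChip Operating Software and scaled each array to a global target. The deposited intensities are linear, and their mean without the highest and lowest 2% was 499.94 to 499.95 on all 24 arrays. Neither the software version nor its background step is stated in the sources used, and detection calls were not used. From the 38535 probe sets, 96 controls were removed. Log2 intensities were computed here with no further normalization.

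Probe sets with a mean at or above the median over the 12 E7 arrays were kept. Models of limma 3.58.1 in R 4.3.3, with a mean-variance trend, held the 4 E7 groups, or all 8 groups for E14 and the difference between ages. P values were adjusted by Benjamini and Hochberg over the 19220 probe sets, with 0.05 as the threshold. The script was tested on simulated data. Python 3.11.15, pandas 2.3.3 and matplotlib 3.10.9 made the tables and figures.

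The platform annotation gave 27168 probe sets 1 symbol, 177 several and 11094 none, and 26853 matched RefSeq genes by gene ID. The brightest kept probe set stood for a gene. Probe sets of close paralogs may share signal. The members, the 58 lists (1410 symbols, 907 tested) and their tests were chosen with earlier results of these data known. Genes named were the 15 largest increases and 15 largest decreases whose groups did not overlap, up to 8 members per list with the lowest p, its defining genes, and the 8 largest differences in each direction between ages and between media. A few genes of the lists beyond these limits were chosen after their values were seen.

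Alternatives were filters on low signal, quantile normalization, median centring, other sets of arrays in the model, an unmoderated analysis of variance, no trend, a replicate block, and leaving out each array. The number of arrays limits the precision.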

Additional observations from a re-analysis of the deposited data

Results flagged for a closer look

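Differences between the serum effects of 2 groups were tested with limma as interaction terms, and those that passed are given here as the log2 change in E7 SF3 minus the log2 change in the other comparison. None of the groups has over 3 arrays, so single arrays were not tested as outlying.

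The serum effect differed between E7 and E14 cultures in 735 probe sets. Among named genes the more positive changes at E7 were those of NTRK3, a neurotrophin receptor (4.00), SIX6, a homeobox gene of the eye (3.28), CYP24A1 (3.19), the adaptor GRAP2 (2.70), RGS2, a regulator of G protein signalling (2.62), DCX, a microtubule protein of young neurons (2.45), MXRA8 (2.30) and RGCCL (2.25). NTRK3 signals were 134, 27 and 145 without serum and 409.8, 321 and 218 with serum at E7 and 238, 194 and 384 without serum and 50, 101 and 46.9 with serum at E14, so that its changes had opposite signs at the 2 ages. SIX6 at E7 did not pass (log2 change 0.94, adjusted p = 0.118), and its E14 signals, 57.6, 62.5 and 61.3 without serum and 12.6, 7.7 and 17.7 with serum, were all under the filter level. CA14 differed by 2.05, SCARB1 by 1.74, TTR by 1.66, KCNQ1 by 1.34, RDH11 by 1.30, STRA6 by 1.29 and RPE65 by 0.72.

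More negative changes at E7 were those of HESX1 (-4.36), CXCR4 (-3.21), the muscarinic receptor CHRM4 (-2.76), LRIT1 (-2.71), the scaffold SHANK2 (-2.25), the growth factor MDK (-2.12), CDCA3 (-2.06) and POF1B (-1.88). MDK signals were 1764, 2618 and 1929.7 without serum and 667, 586 and 809 with serum at E7 and 137, 83.5 and 103 without serum and 128, 167 and 161 with serum at E14. The E14 signals of MDK without serum lay near the filter level, so a decrease like that at E7 could not be measured there. SQLE differed by -1.43, DHCR7 by -1.30 and HMGCS1 by -1.27.

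Between E7 cultures without and with conditioned medium, 412 probe sets differed. The more positive changes in SF3 were those of TAT (3.76), EPHA3 (2.77), FAT4 (2.36), the anoctamin ANO3 (2.30), SKIL (2.07), SYNE2, a protein of the nuclear envelope (1.85), UBTF, a factor of ribosomal RNA transcription (1.83), and the collagen gene COL24A1 (1.78). PSAT1 differed by 1.47, TTR by 1.27, STRA6 by 0.95 and RPE65 by 0.75. The more negative ones were HESX1 (-3.55), CXCR4 (-2.45), SPP1, which encodes osteopontin (-2.23), DIO3 (-2.22), CDCA3 (-2.21), AMY2A (-1.87), CDHR1, a photoreceptor cadherin (-1.73), and SLMAP (-1.68). SPP1 signals were 6530.0, 8522 and 4601 without serum and 5419, 3795 and 4662 with serum in SF3 and 368, 276 and 246 without serum and 694, 1205 and 1154 with serum in rcSF3.

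Of 46 differences of named genes that passed, 20 did not when some single array was left out. Leaving out 1 array ended the call for CDCA3, DCX, MDK and POF1B between ages and UBTF between media (adjusted p = 0.0547, 0.0526, 0.0543, 0.0539 and 0.052). Any of 3 arrays did so for HMGCS1, NTRK3 and SIX6. Between ages, the calls of CXCR4, CYP24A1, DHCR7, GRAP2, LRIT1, MXRA8 and RGS2 each ended with any of 6 to 10 arrays left out, with adjusted p of up to 0.101. Between media, those of CDCA3, COL24A1, CXCR4, PSAT1 and RPE65 ended with any of 7 to 9, with adjusted p of up to 0.107. The E7 changes of NTRK3 and GRAP2 themselves did not pass without 3 and 5 of the 6 arrays.

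Several of these values rest on signals under the filter level and are not measured sizes. With signals raised to that level, the differences between ages were 0.94 for SIX6, 0.02 for GRAP2 and -0.70 for LRIT1 (adjusted p = 0.139, 0.976 and 0.221), and that between media was 1.12 for ANO3 (adjusted p = 0.054), so that these 4 no longer passed. Those of HESX1, NTRK3 and RGS2 between ages became -2.90, 2.80 and 1.75, and those of TAT, HESX1 and CXCR4 between media 2.54, -2.92 and -3.12, all of which passed. HESX1 and CXCR4 lay near or under the filter level in the E14 SF3 and rcSF3 groups, so a decrease there could not be measured. MDK lay near that level in E14 SF3 cultures without serum. For HESX1 and CXCR4, and for MDK between ages, the test therefore cannot compare serum effects.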

How the results depend on the processing

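The 7358 probe sets called with serum in E7 SF3 cultures became 5952 to 7611 under the other settings, and 6084 to 7534 when an array was left out, all within 1.5 times. The counts for E14 (3956 to 5457) and for conditioned medium (4431 to 6233) moved as little. The 735 differences between ages became 473 with no filter on low signal and 377 to 742 when an array was left out. The 412 differences between media became 249 with no filter, 177 with no mean-variance trend, 132 in the analysis of variance without moderation, and 197 to 545 when an array was left out. The causes of these moves were not tested.

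Same-numbered arrays of E7 SF3 and E7 SF3 serum did not deviate together (correlations -0.03, -0.09 and 0.02), nor did those of rcSF3 with and without serum (-0.04 to 0.06). Between media they did without serum (SF3 and rcSF3, 0.14 to 0.20) and less so with serum (0.04 to 0.13). As not every pair was over 0.1, the numbers were not taken as pairs. A model with the replicate block called 7611 probe sets, and 875 and 502 for the differences between ages and media.

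Of 149 genes examined that passed, 124 stayed on their side of the threshold and kept their direction under every setting, and 1 reversed. That one was ACTG1, at 0.069 after quantile normalization. The other reversals were of genes that did not pass as deposited. PDGFRB was 0.0028 after median centring and 0.0519 after quantile normalization. SQLE and DHCR7 were 0.0385 and 0.0115 after median centring. OTX2 was 0.24 after quantile normalization and passed there (adjusted p = 0.00148). Leaving out arrays gave -0.130 to 0.0946 for SQLE, -0.157 to 0.0485 for DHCR7, -0.0786 to 0.017 for PDGFRB, -0.0989 to 0.0257 for OTX2 and -0.189 to 0.0253 for BEST1. Leaving out an array ended the call of 20 genes. The actin 3' to 5' difference of -0.38 was -0.25 after quantile normalization and -0.42 to -0.31 without single arrays. Signals near the filter level bound small changes of dim genes, and very bright ones depend on scaling.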
